A study of Homo sapiens with 8 samples.

Results

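The mitochondrial ribosomal protein genes were taken as every protein-coding gene whose symbol begins with MRPL or MRPS, followed by a number and at most 1 letter from A to C. This gave 78 genes of 19770 in the processed RNA-seq files, spread over 21 chromosomes. RNA-seq was performed in HEK293T cells, a human embryonic kidney cell line carrying the SV40 large T antigen, at 72 h post-transfection, with 2 libraries in each of 4 groups. The control received dCas9, a nuclease-deactivated Cas9, with MCP-mCherry, a fluorescent protein fused to the MS2 coat protein. CRISPR-DREAM was dCas9 with MCP-MSN, which joins activation domains of human mechanosensitive transcription factors. The SAM system was dCas9-VP64 with MCP-p65-HSF1, and dCas9-VPR carried its activation domains (VP64, p65 and Rta) fused directly to dCas9. All 4 groups also carried the same pool of 4 gRNAs against the *HBG1*/*HBG2* promoter, with MS2 loops in every group but dCas9-VPR, and none of these genes was a target. The plasmids were transiently transfected, at 187.5 ng for each effector plasmid, 375 ng for dCas9-VPR and 125 ng of gRNA plasmid, so that each library was a bulk mixture of transfected and untransfected cells, in which a change in the cells that express a gene and a change in its RNA per cell cannot be told apart.

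The mitochondrial ribosome translates the few mRNAs encoded by mitochondrial DNA, all of which specify core subunits of the respiratory chain and ATP synthase. Its rRNAs are transcribed inside the organelle, whereas its proteins are encoded in the nucleus, made in the cytosol and imported. Proteins named MRPS belong in the main to the small subunit, which decodes the mRNA, and proteins named MRPL to the large subunit, which forms the peptide bond. Many have a bacterial counterpart and the others are found only in mitochondria.

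Estimated depth was 28.4 to 35.1 M reads per library, at which 3 reads correspond to 0.0855 to 0.1056 CPM, a gene's reads scaled to a common library total. The targeted *HBG2*, a fetal globin gene, was at 1.29 and 0.837 CPM in control libraries, 2187 and 2874 under CRISPR-DREAM, 707 and 859.7 under the SAM system and 218 and 201 under dCas9-VPR. *HBG1* was listed at 0 in both control libraries and at 7.42 and 12.7 CPM with CRISPR-DREAM. *CDH2*, *VIM*, *KRT8*, *KRT18* and *NEFM*, which HEK293T cells are known to express, were at 13.9 CPM or more in every library, while *PAX2* (0.798 to 1.73 CPM) and *LHX1* (1.11 to 2.25 CPM), early kidney genes, were low. The endothelial gene *PECAM1* was at 0.0319 to 1.17 CPM. Nothing in the labels states that the 2 libraries of a group came from separate cultures, so p-values measure the spread between these libraries, which may be technical.

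Promoter sequences were examined first because they are a property that the choice by gene name did not use. RefSeq promoters (GRCh38.p14, 250 bases before to 50 bases after the start site) were matched for 69 of the 78 genes. Exact matches on either strand were counted for 3 motifs of factors known for nuclear genes of mitochondrial proteins. These were NRF1 (GCGCANGCG), GABPA/ETS (CCGGAAG) and YY1 (AAGATGGC). The ETS motif was found in 30 of 69 promoters (43.5%), against 19.3% of the promoters of 10544 protein-coding genes tested. The YY1 motif was found in 21 (30.4%) against 5.57%, and in 16 of these promoters a match lay downstream of the start site. The NRF1 motif was found in 14 (20.3%) against 15.4%. At least 1 of the 3 motifs was present in 50 promoters (72.5%), against 35.0% of the coding genes. A match is a stretch of letters and not a measured binding site. The YY1 motif holds the letters ATG, and whether its matches lie on translation starts was not tested.

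**Figure D1:**
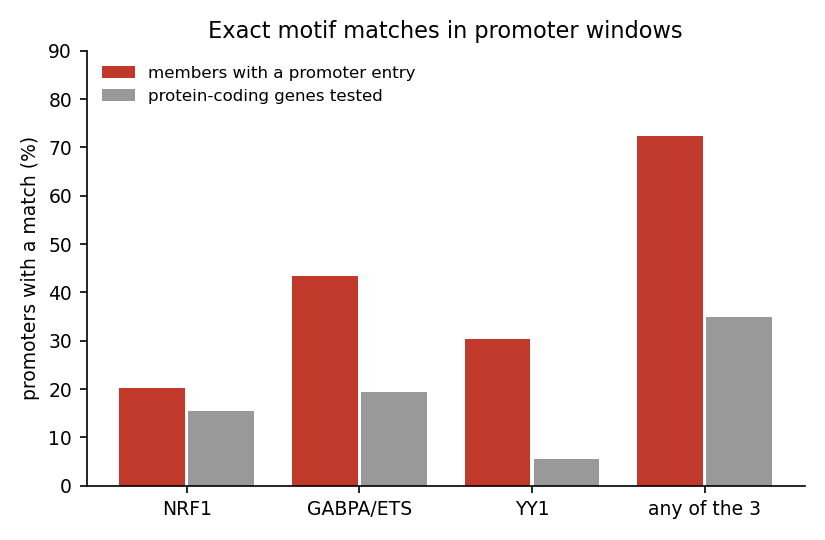
Share of promoter windows (y axis, percent) with an exact match to each motif (x axis), for the 69 mitochondrial ribosomal protein genes with a RefSeq promoter (red) and the 10544 protein-coding genes tested (grey). The YY1 motif stood at 30.4% against 5.57% and the NRF1 motif at 20.3% against 15.4%.

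The promoters of 6 genes whose levels are described below are given 5′ to 3′ on the gene's own strand, with motif matches in capitals and positions counted from 0 at the start site. *MRPS34* (chr16:1773085-1773384, minus strand) and *MRPS22* (chr3:139343770-139344069, plus strand) each held 3 ETS matches. *MRPS18A* (chr6:43687742-43688041, minus strand) held an ETS match at -31 and a YY1 match at 9. *MRPL46* (chr15:88467339-88467638, minus strand) and *MRPL50* (chr9:101398569-101398868, minus strand) held a YY1 match at 8 and at 23. *MRPL19* (chr2:75646533-75646832, plus strand) held none of the 3 motifs and is shown for contrast.
MRPS34: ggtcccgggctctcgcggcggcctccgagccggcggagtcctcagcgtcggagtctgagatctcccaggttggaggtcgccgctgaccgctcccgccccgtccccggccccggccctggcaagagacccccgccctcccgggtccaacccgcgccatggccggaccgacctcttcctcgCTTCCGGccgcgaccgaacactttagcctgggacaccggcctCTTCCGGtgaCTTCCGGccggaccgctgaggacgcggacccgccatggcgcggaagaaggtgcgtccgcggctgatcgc
MRPS22: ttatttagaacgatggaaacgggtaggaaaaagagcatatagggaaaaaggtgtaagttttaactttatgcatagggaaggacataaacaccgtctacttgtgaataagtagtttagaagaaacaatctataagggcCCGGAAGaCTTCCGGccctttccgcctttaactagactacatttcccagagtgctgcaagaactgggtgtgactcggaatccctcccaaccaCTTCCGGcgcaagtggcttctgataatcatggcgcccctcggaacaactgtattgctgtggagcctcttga
MRPS18A: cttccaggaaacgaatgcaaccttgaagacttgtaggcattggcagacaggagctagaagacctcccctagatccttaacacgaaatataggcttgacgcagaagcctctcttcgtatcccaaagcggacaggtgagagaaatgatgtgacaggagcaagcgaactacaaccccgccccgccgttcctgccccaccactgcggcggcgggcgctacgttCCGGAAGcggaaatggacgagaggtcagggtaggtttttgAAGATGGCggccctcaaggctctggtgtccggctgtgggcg
MRPL46: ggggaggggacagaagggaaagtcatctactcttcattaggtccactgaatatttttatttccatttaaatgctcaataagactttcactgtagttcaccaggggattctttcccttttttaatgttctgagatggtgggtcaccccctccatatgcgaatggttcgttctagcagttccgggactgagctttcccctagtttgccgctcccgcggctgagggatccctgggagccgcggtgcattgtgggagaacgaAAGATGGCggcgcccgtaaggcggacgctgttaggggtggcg
MRPL50: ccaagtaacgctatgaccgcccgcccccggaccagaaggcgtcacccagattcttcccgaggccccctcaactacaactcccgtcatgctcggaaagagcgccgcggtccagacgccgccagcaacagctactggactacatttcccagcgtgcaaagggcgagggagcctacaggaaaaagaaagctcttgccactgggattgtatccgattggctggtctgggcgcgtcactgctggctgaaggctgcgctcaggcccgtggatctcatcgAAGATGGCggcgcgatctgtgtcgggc
MRPL19: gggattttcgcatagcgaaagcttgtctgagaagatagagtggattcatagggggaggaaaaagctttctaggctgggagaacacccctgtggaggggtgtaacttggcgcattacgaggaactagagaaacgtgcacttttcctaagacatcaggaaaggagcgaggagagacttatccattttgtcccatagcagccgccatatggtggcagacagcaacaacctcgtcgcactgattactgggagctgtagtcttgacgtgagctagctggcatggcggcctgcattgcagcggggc

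All 78 genes were expressed in every library. The mean level over 8 libraries ran from 21.2 to 276 CPM with a median of 74.0 CPM, all 78 passed the filter on low values (at least 1 CPM in at least 2 libraries), and no gene was below 1 CPM in any library. Because longer transcripts yield more reads, levels were compared between genes only per length. Per kb of annotated exon, the level was highest for *MRPL12* (233 CPM per kb), which forms the flexible stalk of the large subunit, followed by *MRPS26* (154 CPM per kb) and *MRPL41* (139 CPM per kb). It was lowest for *MRPS25* (3.69 CPM per kb), *MRPS22* (4 CPM per kb) and *MRPS5* (4.27 CPM per kb), so that genes whose products are incorporated into the same particle spanned a 63.1-fold range on this scale. The order depended on which length was used. Per kb of the canonical transcript, *MRPS22* was at 54.5 and *MRPS25* at 14.8 CPM per kb, and the range was 33.8-fold, while *MRPL12* remained highest.

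**Figure D2:**
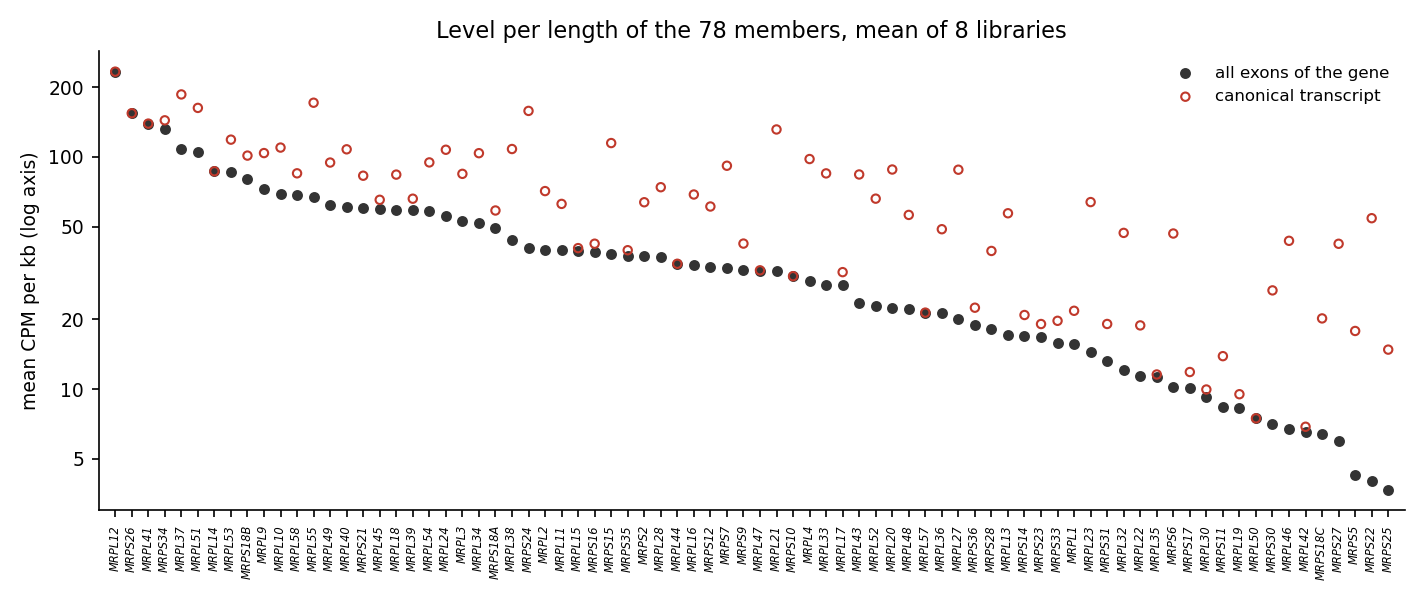
Mean level per length (y axis, CPM per kb, log axis) of the 78 genes (x axis), ordered by the value per kb of all annotated exons (filled points), with the value per kb of the canonical transcript (open red points). *MRPL12* is highest by both lengths, and *MRPS22*, near the right end, moves from 4 to 54.5 CPM per kb when the canonical transcript is used.

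Other genes with a known role filled in the range. The stalk base protein gene *MRPL10* was at 69.2 and *MRPL53* at 85.9 CPM per kb of exon. *MRPS12*, which encodes a protein of the decoding center, was at 33.4 CPM per kb. *MRPL45*, whose product anchors the ribosome to the inner membrane near the exit tunnel, was at 59.6, and *MRPL58*, a peptide release factor built into the large subunit, at 68.6 CPM per kb. Of the 3 paralogs related to bacterial S18, *MRPS18B* (80.6 CPM per kb) and *MRPS18A* (49.4 CPM per kb) stood above *MRPS18C* (6.42 CPM per kb). *MRPS36*, which despite its name encodes a component of the 2-oxoglutarate dehydrogenase complex, was at 18.9 CPM per kb and passed the test in no comparison.

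The summed level of the 78 genes took 0.620 to 0.684% of each library. It was 6478 and 6646 CPM in control libraries, 6403 and 6799 under CRISPR-DREAM, 6663 and 6838 under the SAM system, and 6197 and 6341 under dCas9-VPR. The control range thus lay inside that of CRISPR-DREAM, both SAM system libraries were above both control libraries, and both dCas9-VPR libraries were below them. The mean ratios to the control were 1.01, 1.03 and 0.955. The order of the SAM system and the control depended on the scaling. Divided by median-of-ratios size factors, which bring the typical gene to one level in every library, the sums were 6731 and 7070.2 in control libraries, 6275 and 6911 under CRISPR-DREAM, 6122 and 6388 under the SAM system and 6247 and 6468 under dCas9-VPR, so that both SAM system libraries were below both control libraries on this scale. The sum of the 51 large subunit genes over that of the 26 small subunit genes stayed between 2.13 and 2.19 in all 8 libraries (*MRPS18A* and *MRPS30* are counted with the large subunit, where their products sit, and *MRPS36* with neither).

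To ask whether any of these genes responded to an activator aimed elsewhere, log2(CPM + 0.5) was compared between groups with limma across 15122 genes, and FDR is the Benjamini-Hochberg adjusted p-value over all of them. By the study's threshold, a fold change above 2 with FDR below 0.05, 0 of 78 genes were called in any of the 6 comparisons, and 0 were past 2-fold at an unadjusted p below 0.05. The background by this rule was 2.55% of all genes tested for CRISPR-DREAM relative to the control, 4.34% for the SAM system, 1.1% for dCas9-VPR, 0.721% for CRISPR-DREAM against SAM, 0.734% between CRISPR-DREAM and dCas9-VPR, and 2.31% between the SAM system and dCas9-VPR. The 95% confidence interval of every gene's fold change lay within 2-fold in all 6 comparisons. The differences described from here on are therefore all smaller than 2-fold, and the comparisons with the control share the same 2 control libraries.

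**Figure D3:**
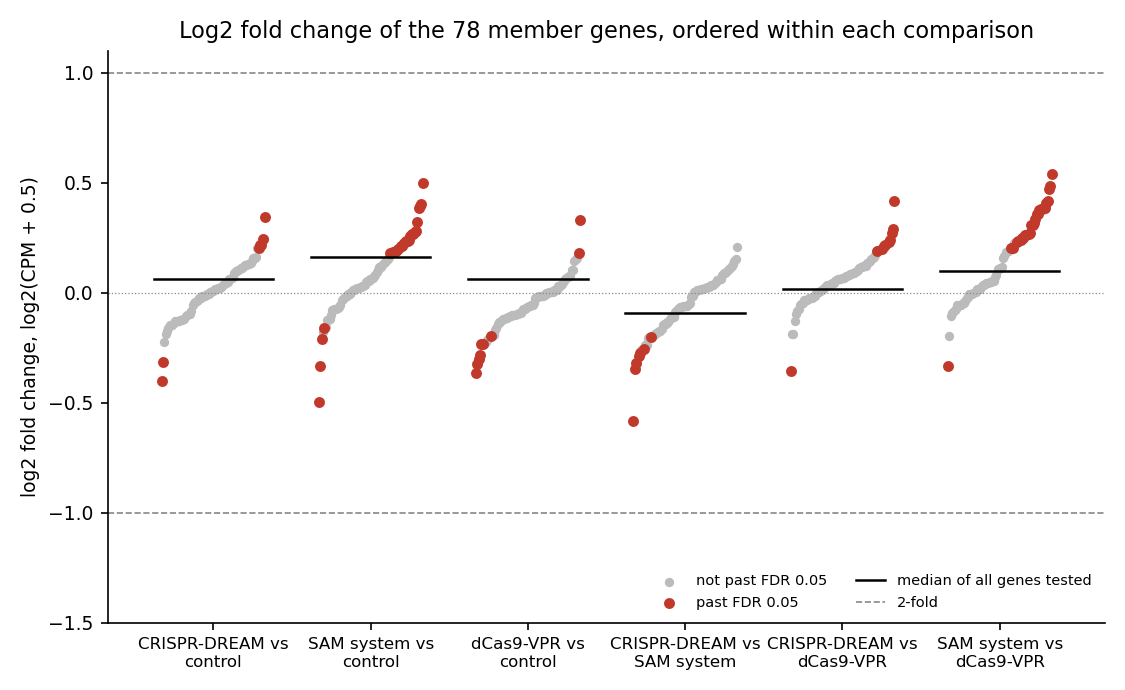
Log2 fold change on the log2(CPM + 0.5) scale (y axis) of the 78 genes in each of 6 comparisons (x axis), ordered within each comparison, with genes past FDR 0.05 in red, the others in grey, the median of all genes tested as a black line and 2-fold as dashed lines. No gene reaches 2-fold, and in the comparison of the SAM system with the control most points lie below the median of all genes, 0.163.

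With CRISPR-DREAM, 5 genes were higher and 2 were lower than in the control at FDR below 0.05, and 71 did not pass. The 5 higher genes were 6.41% of the 78, against 18.8% of all genes tested, and the 2 lower genes were 2.56%, against 9.25%. Both shares were below the background. The median log2 fold change of the 78 genes was 0.010, beside 0.064 for all genes. Of the higher genes, *MRPL19*, *MRPL40* and *MRPL9* encode large subunit proteins and *MRPS22* and *MRPS10* small subunit proteins. *MRPS22* was at 57.3 and 56.4 CPM in control libraries and 67.3 and 67.6 under CRISPR-DREAM (log2 fold change 0.24 ± 0.06 (SE), FDR = 0.0104). *MRPS10* was at 61.7 and 58.2 CPM in control libraries and 71.3 and 68.3 under CRISPR-DREAM (log2 fold change 0.22 ± 0.06 (SE), FDR = 0.0264). *MRPS22* stood 18.6% above the control mean. Under median-of-ratios scaling *MRPS22* kept its call (FDR = 0.0488), while *MRPS10*, *MRPL40* and *MRPL9* lost theirs (FDR = 0.0825, 0.0726 and 0.0884). *MRPL40* (73.3 and 71.0 CPM in control libraries and 85.3 and 82.4 under CRISPR-DREAM) rose by 0.22 and *MRPL9* (118 and 115 CPM in control libraries and 134 and 134 under CRISPR-DREAM) by 0.20 on the log2 scale. The gene that fell apart from *MRPS34* was *MRPL50*, a large subunit gene without a bacterial counterpart, at 25.8 and 23.8 CPM in control libraries and 20.9 and 18.7 under CRISPR-DREAM (log2 fold change -0.32 ± 0.08 (SE), FDR = 0.0176). Without control replicate 2 only *MRPL50* was still called, and without control replicate 1 or DREAM replicate 2 it was *MRPL50* that was lost (FDR = 0.108 and 0.0734).

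On the deposited CPM scale, 21 genes were above and 4 below the control with the SAM system, and 53 did not pass. The 21 higher genes were 26.9% of the 78, against 35.7% of all genes, and the 4 lower genes were 5.13%, against 8.89%. This split depended on the scaling. The median log2 fold change of all genes was 0.163 on the CPM scale, and that of the 78 genes was 0.062. When the libraries were rescaled by median-of-ratios size factors, the median of all genes was -0.011, that of the 78 genes was -0.119, and 3 were higher and 21 lower (3.85 and 26.9%, against 18.1 and 21.1% of all genes). By either scaling the median of the 78 genes was below that of all genes. The same rescaling changed the split to 2 higher and 7 lower with CRISPR-DREAM (2.56 and 8.97%, against 13.7 and 14.3% of all genes). With dCas9-VPR it became 1 higher and 10 lower (1.28 and 12.8%, against 8.04 and 8.9%). The call and direction were shared between the 2 scalings for 7 genes with the SAM system, namely *MRPS22*, *MRPL19* and *MRPL35* upward and *MRPS34*, *MRPL23*, *MRPL38* and *MRPL10* downward.

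**Figure D4:**
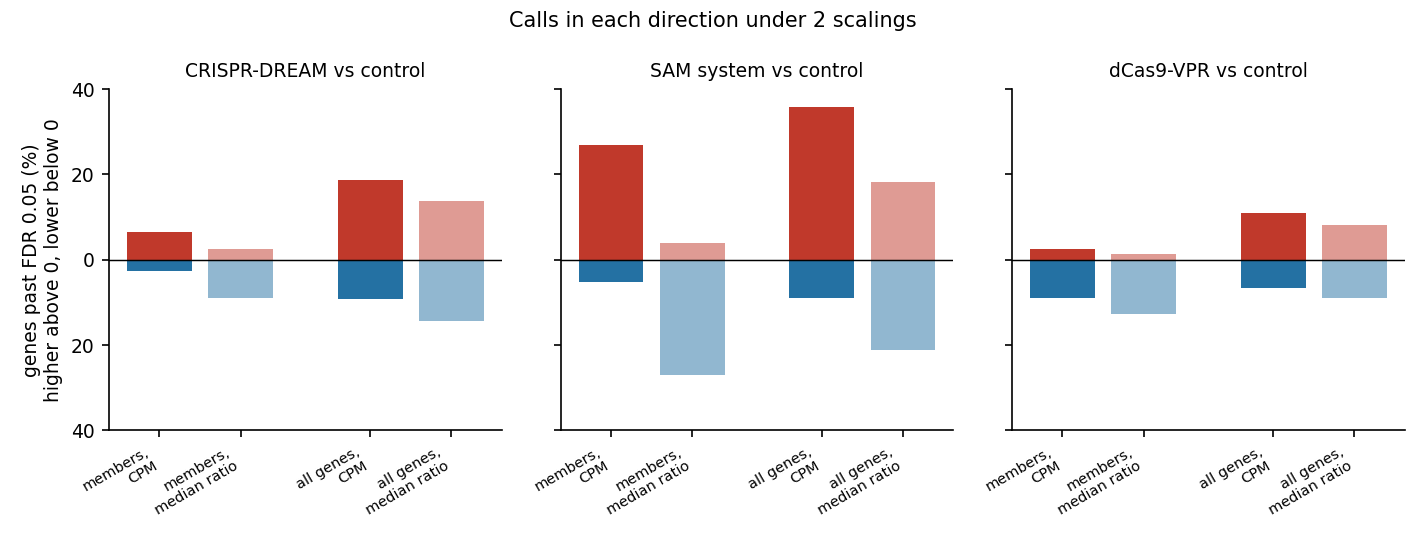
Percent of genes past FDR 0.05 (y axis, higher above 0 in red and lower below 0 in blue) for the 78 genes and all genes tested, on the deposited CPM (solid) and after median-of-ratios scaling (pale), in the 3 comparisons with the control. With the SAM system the 78 genes go from 26.9% higher and 5.13% lower to 3.85% higher and 26.9% lower.

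The largest rise with the SAM system was that of *MRPS22*, a small subunit gene of the mitochondria-specific class, at 57.3 and 56.4 CPM in control libraries and 79.9 and 81.5 under the SAM system (log2 fold change 0.50 ± 0.06 (SE), FDR = 0.000151), or 41.8% above the control mean. *MRPL35* rose from 40.6 and 37.6 to 49.6 and 52.9 CPM (log2 fold change 0.39 ± 0.07 (SE), FDR = 0.00154). When 1 library was left out, the log2 fold change ran from 0.49 to 0.51 for *MRPS22* and from 0.33 to 0.44 for *MRPL35*. Of the others, *MRPL34* was at 66.9 and 76.2 CPM in control libraries and 84.9 and 104 under the SAM system (log2 fold change 0.40 ± 0.13 (SE), FDR = 0.0327), *MRPL52* at 67.6 and 68.2 CPM in control libraries and 79.0 and 91.4 under the SAM system (log2 fold change 0.32 ± 0.08 (SE), FDR = 0.00892) and *MRPL47* at 43.4 and 40.9 CPM in control libraries and 52.3 and 50.4 under the SAM system (log2 fold change 0.28 ± 0.09 (SE), FDR = 0.0288). These 3 large subunit genes lost their calls under median-of-ratios scaling (FDR = 0.26, 0.236 and 0.344) and also without SAM replicate 2 (FDR = 0.202, 0.0869 and 0.0757). *MRPL34* had a log2 fold change of 0.25 without SAM replicate 2 and 0.21 under median-of-ratios scaling, and was lost as well without control replicate 1 (FDR = 0.154), and *MRPL47* without either control library or SAM replicate 1 (FDR = 0.055 to 0.155). *MRPL23* fell, with 47.3 and 46.3 CPM in control libraries and 38.3 and 35.99 under the SAM system (log2 fold change -0.33 ± 0.08 (SE), FDR = 0.00754), and the call was lost only without SAM replicate 2 (FDR = 0.0583). *MRPL38* was at 149.9 and 169 CPM in control libraries and 133 and 142 under the SAM system (log2 fold change -0.21 ± 0.07 (SE), FDR = 0.0352) and the stalk base gene *MRPL10* at 197 and 208 CPM in control libraries and 181 and 182 under the SAM system (log2 fold change -0.16 ± 0.05 (SE), FDR = 0.0378). The call of *MRPL38* was lost without control replicate 2 (log2 fold change -0.12), either SAM library or either VPR library (FDR = 0.0517 to 0.276), and that of *MRPL10* without any 1 of the control, SAM or VPR libraries (FDR = 0.0508 to 0.228). The count of 25 called genes fell to 15 without control replicate 1, 13 without control replicate 2, 16 without SAM replicate 1 and 8 without SAM replicate 2.

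With dCas9-VPR, 2 genes were above the control, 7 were below it and 69 did not pass. The 2 higher genes, *MRPL19* and *MRPL40*, were 2.56% of the 78, against 11% of all genes, and the 7 lower genes were 8.97%, against 6.68%. The median log2 fold change was -0.063, beside 0.061 for all genes. *MRPL58* fell from 80.9 and 83.1 to 63.0 and 64.1 CPM (log2 fold change -0.36 ± 0.06 (SE), FDR = 0.00452). *MRPL46* was at 45.4 and 44.5 CPM in control libraries and 35.9 and 35.7 under dCas9-VPR (log2 fold change -0.33 ± 0.07 (SE), FDR = 0.0105). *MRPS18A* was at 65.03 and 67.8 CPM in control libraries and 54.5 and 54.6 under dCas9-VPR (log2 fold change -0.28 ± 0.06 (SE), FDR = 0.00899). In all 3 genes the dCas9-VPR libraries were below every other library of the study. *MRPL45* (-0.23), *MRPS5* (-0.23) and *MRPL2* (-0.20 on the log2 scale) also fell. Leaving out control replicate 2 or either dCas9-VPR library removed most of these calls. The log2 fold change of *MRPL58* was -0.34 without control replicate 2 and -0.35 without VPR replicate 1. Those of other called genes moved more when 1 library was left out. The value ran from 0.22 to 0.45 for *MRPL19*, from -0.35 to -0.25 for *MRPS34* and from 0.14 to 0.22 for *MRPL40*. Median-of-ratios scaling kept all 7 genes that fell.

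*MRPS34*, *MRPL19* and *MRPL40* passed the test relative to the control with all 3 activators. These comparisons share the control libraries, and the share of all genes that passed with all 3 was not computed. *MRPS34*, a small subunit gene of the mitochondria-specific class, was at 169 and 181 CPM in control libraries, 119 and 148 under CRISPR-DREAM, 121 and 127 under the SAM system and 137 and 147 under dCas9-VPR. Every activator library was below both control libraries. The fitted log2 fold changes were -0.40 (FDR = 0.00953) for CRISPR-DREAM, -0.50 (FDR = 0.00197) for SAM and -0.30 (FDR = 0.0468) with dCas9-VPR. The CRISPR-DREAM value was -0.24 without DREAM replicate 1 and -0.56 without DREAM replicate 2. *MRPL19*, which encodes a homologue of bacterial L19, was at 66.3 and 56.5 CPM in control libraries, 81.8 and 73.8 under CRISPR-DREAM, 85.7 and 76.7 under the SAM system and 77.2 and 77.1 under dCas9-VPR. Its rises were 0.34 (FDR = 0.0147), 0.40 (FDR = 0.00412) and 0.33 (FDR = 0.0267) on the log2 scale, and the gap between the 2 control libraries was wider than the gap from the upper control library to the lowest activator library. Without control replicate 2 the rises with CRISPR-DREAM and dCas9-VPR were 0.23 and 0.22. *MRPL40* was at 73.3 and 71.0 CPM in control libraries, 85.3 and 82.4 under CRISPR-DREAM, 82.5 and 83.4 under the SAM system and 84.1 and 79.8 under dCas9-VPR, with rises of 0.22 (FDR = 0.0171), 0.20 (FDR = 0.0158) and 0.18 (FDR = 0.0497). The SAM system calls of *MRPS34* and *MRPL19* stood in every alternative. The CRISPR-DREAM calls did not. Without control replicate 2 the FDR was 0.0698 for *MRPS34*, 0.134 for *MRPL19* and 0.112 for *MRPL40*, and without DREAM replicate 1 it was 0.0712 for *MRPL19* and 0.0614 for *MRPL40*. Under median-of-ratios scaling *MRPL40* passed in none of the 3 comparisons (FDR = 0.0726, 0.801 and 0.117). With dCas9-VPR all 3 were lost without control replicate 2 (FDR = 0.222 to 0.255) and without VPR replicate 1 (FDR = 0.14 to 0.288) or VPR replicate 2 (FDR = 0.111 to 0.124).

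**Figure D5:**
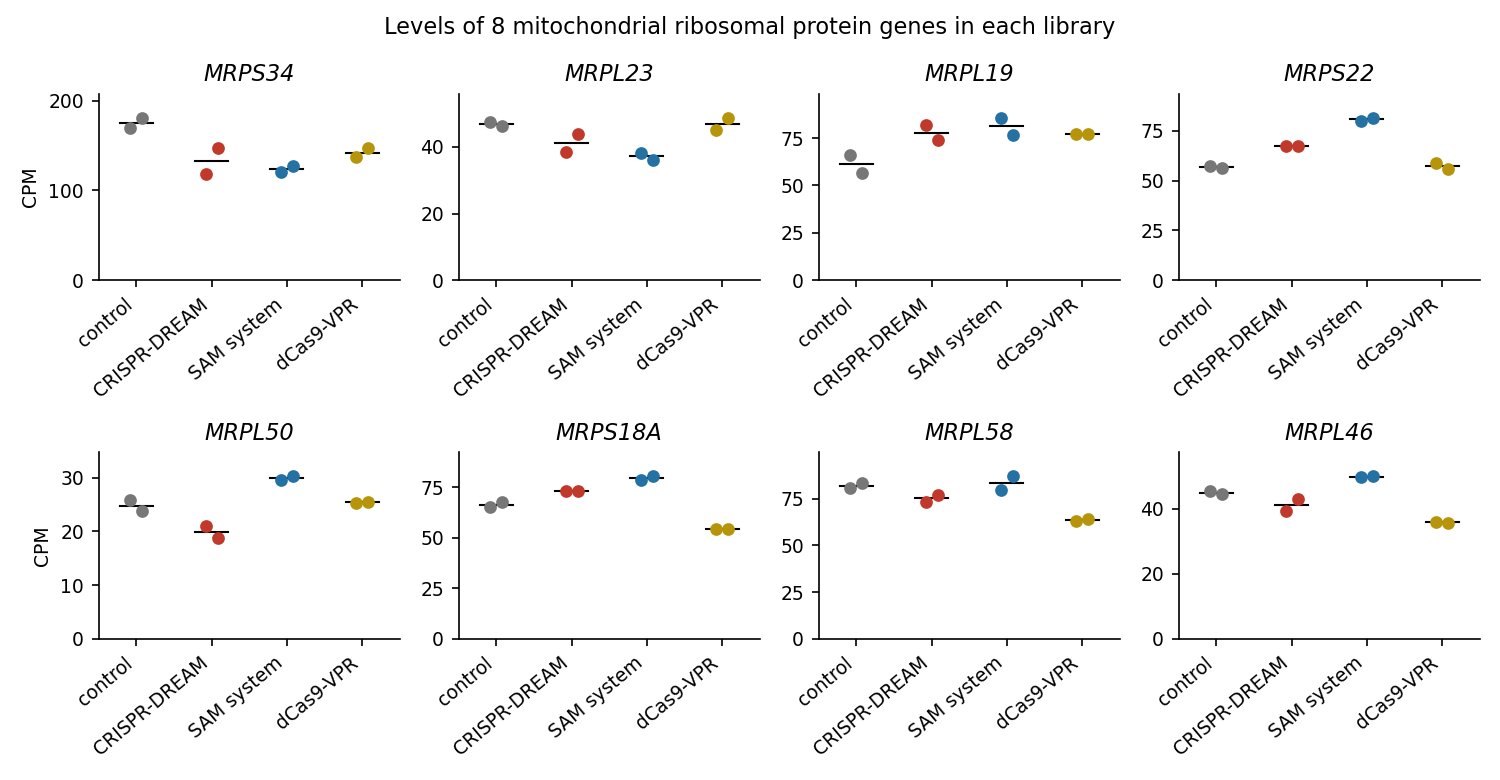
Level (y axis, CPM, from 0) of 8 genes in each library (points) by group (x axis), with the mean of 2 libraries as a line. *MRPS34* is lower than in the control with every activator, *MRPS22* and *MRPL50* are highest with the SAM system, and *MRPS18A*, *MRPL58* and *MRPL46* are lowest with dCas9-VPR.

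The activators were then compared with each other, with fold changes that do not involve the control libraries. Set against the SAM system, 7 genes were lower with CRISPR-DREAM (8.97%, against 9.14% of all genes) and 0 were higher (against 1.59%, with 2 at an unadjusted p below 0.05 in limma). *MRPL50* showed the largest difference, at 20.9 and 18.7 CPM under CRISPR-DREAM and 29.5 and 30.2 under the SAM system (log2 fold change -0.58 ± 0.08 (SE), FDR = 0.00573). It was the one gene called in opposite directions relative to the control by these systems, since with the SAM system it was higher (0.27 (FDR = 0.025)), a call that was lost under median-of-ratios scaling (FDR = 0.385) and without control replicate 2 or either SAM library (FDR = 0.081 to 0.162). The other 6 genes were *MRPS6*, *MRPS14*, *MRPL35*, *MRPL46*, *MRPS22* and *MRPL45*, with log2 fold changes from -0.34 to -0.20. Under median-of-ratios scaling *MRPL50* was the only one of the 7 called, and 2 other genes, *MRPL24* and *MRPL28*, were higher (2.56 and 1.28% higher and lower, against 5.38 and 3.68% of all genes). The log2 fold change of *MRPS6* was -0.22 without SAM replicate 2, and no gene was called without SAM replicate 2 (11 at an unadjusted p below 0.05), where *MRPL50* had FDR = 0.0811. The count was 2 without SAM replicate 1 or without either VPR library, and 4 without DREAM replicate 2.

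Relative to dCas9-VPR, 9 genes were higher with CRISPR-DREAM (11.5%, against 7.9% of all genes) and 1 was lower (1.28%, against 5.21%). *MRPS18A* led, at 73.0 and 73.1 CPM under CRISPR-DREAM and 54.5 and 54.6 under dCas9-VPR (log2 fold change 0.42 ± 0.06 (SE), FDR = 0.00179), and it was the only call of this comparison that stood in every alternative. The gene that was lower was again *MRPL50* (-0.35 (FDR = 0.0215)). After median-of-ratios scaling 6 genes were higher (7.69%, against 6.92% of all genes) and 1 was lower (1.28%, against 6.78%). Those 6 were all among the 9, and the share of higher genes was near the background on this scale. The count fell from 10 to 1 without either dCas9-VPR library and to 4 without DREAM replicate 2.

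The SAM system against dCas9-VPR gave 28 calls, the most of the 6 comparisons. In this contrast 27 genes were higher with the SAM system (34.6%, against 23.6% of all genes) and 1, *MRPL23*, was lower (1.28%, against 6.32%). The 27 comprised 17 large subunit and 10 small subunit genes. *MRPS18A* was at 78.4 and 80.5 CPM against 54.5 and 54.6 CPM (log2 fold change 0.54 ± 0.06 (SE), FDR = 0.000274). *MRPS22* (0.49), *MRPL46* (0.47), *MRPL45* (0.42) and *MRPL58* (0.39 on the log2 scale) followed the same direction. All 3 paralogs of S18 were higher with the SAM system, *MRPS18B* by 0.21 (FDR = 0.0294) and *MRPS18C* by 0.34 (FDR = 0.0129), and under median-of-ratios scaling the direction was kept in all 3 but only *MRPS18A* was called. After median-of-ratios scaling 10 genes were higher and 7 lower (12.8 and 8.97%, against 13.7 and 16% of all genes), and those 10 were all among the 27. On this scale the share of higher genes was thus near the background and that of lower genes below it. The share of higher genes on the CPM scale was above the background. Leaving out SAM replicate 2 left 12 calls, VPR replicate 1 left 15 and VPR replicate 2 left 13. In all, 9 calls of this comparison stood in every alternative, those of *MRPL35*, *MRPL44*, *MRPL45*, *MRPL46*, *MRPL58*, *MRPS10*, *MRPS18A*, *MRPS22* and *MRPS35*.

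The subunits were described separately. Of 51 large subunit genes, 15 rose and 3 fell under SAM on the CPM scale, and of 26 small subunit genes 6 rose and 1 fell. The rising shares, 29.4 and 23.1%, were both below the 35.7% of all genes, and the falling shares, 5.88 and 3.85%, below the 8.89%. After median-of-ratios scaling these counts were 2 and 16 for the large subunit (31.4% lower) and 1 and 5 for the small subunit (19.2% lower), against 21.1% of all genes lower. With dCas9-VPR, 2 large subunit genes rose and 5 fell, and 2 small subunit genes fell, so that 9.8 and 7.69% were lower against 6.68% of all genes. The median log2 fold changes under SAM were 0.056 and 0.118 for the large and small subunit, and with dCas9-VPR -0.053 and -0.078. Of 46 genes with a bacterial counterpart, 10 rose and 2 fell under SAM on the CPM scale, and of 31 without one, 11 rose and 2 fell (21.7 and 35.5% higher, against 35.7% of all genes). After median-of-ratios scaling 2 and 1 rose in these classes (4.35 and 3.23%, against 18.1% of all genes). On that scale 14 and 7 fell (30.4 and 22.6%, against 21.1%). With dCas9-VPR 2 of 46 and 5 of 31 were lower on the CPM scale (4.35 and 16.1%, against 6.68%). After median-of-ratios scaling 3 and 7 were lower (6.52 and 22.6%, against 8.9%). No test was made of the difference between these classes.

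In 40 of the 78 genes no comparison passed. Among them was *MRPL12*, at 235 and 249.9 CPM in control libraries, 225 and 263 under CRISPR-DREAM, 226 and 226 under the SAM system and 224 and 231 under dCas9-VPR, and *MRPS12*, at 61.5 and 68.8 CPM in control libraries, 49.0 and 63.1 under CRISPR-DREAM, 53.3 and 61.8 under the SAM system and 51.7 and 59.9 under dCas9-VPR. *MRPL53*, the other stalk gene, was at 52.8 and 59.2 CPM in control libraries, 58.8 and 66.1 under CRISPR-DREAM, 56.6 and 57.1 under the SAM system and 60.7 and 59.6 under dCas9-VPR. For these 3 genes, as for the rest, the 95% intervals lay within 2-fold in either direction. In the comparisons with the control 29 genes passed at least once. The shares of all genes tested that passed at least once, or in no comparison, were not computed. The counts of 29 and 40 thus have no background beside them.

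Many of these genes lie close to or across another gene, and although the library kit was a stranded one, whether counting used the strand is not given in the sources used here. By the deposited coordinates of the 19770 listed genes, 31 of 78 had the start of a gene on the opposite strand within 1000 bases. By the same coordinates 42 overlapped another gene, 30 of them on the opposite strand. Genes outside that listing are not counted. The shares of all listed genes with such a neighbour or overlap were not computed. *MRPL46* and *MRPS11*, a large and a small subunit gene, are divergent with start sites 62 bases apart. *MRPS11* was at 43.4 and 47.2 CPM in control libraries and 44.5 and 50.3 under dCas9-VPR (log2 fold change 0.06 ± 0.09 (SE), FDR = 0.629), whereas *MRPL46* fell with dCas9-VPR, and the difference between the 2 genes was not tested. *MRPL50* starts 254 bases from *ZNF189*, a zinc finger gene, which was at 17.5 and 17.0 CPM in control libraries, 20.2 and 19.7 under CRISPR-DREAM and 27.4 and 25.1 under the SAM system. *ZNF189* thus rose with the SAM system (0.59 (FDR = 0.0005)), as did *MRPL50*, while with CRISPR-DREAM its log2 fold change was 0.20 (FDR = 0.103) and *MRPL50* fell. *MRPL19* overlaps *GCFC2* on the opposite strand, and reads of the 2 genes cannot be told apart there if strand was not used. *GCFC2* was at 37.9 and 32.9 CPM in control libraries, 48.2 and 41.8 under CRISPR-DREAM, 47.6 and 43.4 under the SAM system and 39.9 and 39.5 under dCas9-VPR, with log2 fold changes of 0.34 (FDR = 0.0196), 0.36 (FDR = 0.0102) and 0.17 (FDR = 0.228). *EME2*, which overlaps *MRPS34* on the opposite strand, was between 2.696 and 4.10 CPM, far below *MRPS34*. *MRPS22*, *MRPS18A* and *MRPL34* also overlap a gene on the opposite strand (*COPB2*, *RSPH9* and *ABHD8*). *MRPL46* and *MRPL38* overlap a gene on their own strand (*AC013489.1* and *AC087289.3*), where strand would not separate reads. How far reads were shared in these genes was not tested. The near-identical copies *MRPL45P2* (3.16 to 4.98 CPM), *MRPS31P4* (0.897 to 2.14 CPM) and *MRPS31P5* (3.62 to 6.50 CPM) could share reads with *MRPL45* and *MRPS31*. How far this altered the values of *MRPL45* and *MRPS31* was not tested.

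The partners of the mitochondrial ribosome were read from the same fit. Of 5 mitoribosomal proteins not named MRP, *CHCHD1*, a small subunit protein gene, was at 42.8 and 47.0 CPM in control libraries, 29.6 and 35.8 under CRISPR-DREAM, 31.0 and 33.4 under the SAM system and 37.9 and 42.8 under dCas9-VPR and fell by the CRISPR-DREAM (-0.46 (FDR = 0.00763)) and SAM (-0.47 (FDR = 0.00391)) comparisons. *DAP3*, a GTP-binding protein of the small subunit, fell with dCas9-VPR (-0.19 (FDR = 0.0241)). The small subunit rRNA gene *MT-RNR1* was lower with all 3 activators, with log2 fold changes of -0.49, -0.39 and -0.53 (FDR = 0.00207, 0.00409 and 0.00344), and the large subunit rRNA gene *MT-RNR2* passed in none. The library kit named in the methods removes rRNA, so the levels of these rRNAs are what was left. Of 13 mitochondrially encoded mRNAs, 0 passed with any activator (limma, with 0 for CRISPR-DREAM, 1 for SAM and 4 for dCas9-VPR at an unadjusted p below 0.05). Their medians were 0.205, 0.248 and 0.477 on the log2 scale, and their sums differed between libraries of a group, with 12254 and 8940 CPM in the control.

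The counts of the lists below are to be read against all genes, of which 18.8% were higher and 9.25% lower with CRISPR-DREAM, 35.7 and 8.89% under SAM, and 11 and 6.68% with dCas9-VPR. After median-of-ratios scaling 21.1% of all genes were lower with the SAM system. Of 28 assembly and rRNA modification factors, 2 rose and 3 fell with CRISPR-DREAM, 9 rose and 5 fell under SAM (32.1 and 17.9%), and 1 rose and 4 fell with dCas9-VPR. *NOA1*, a GTPase needed for small subunit assembly, fell with all 3 activators, by 0.32, 0.60 and 0.33 on the log2 scale. *MRM2*, a methyltransferase of the large subunit rRNA, fell by 0.36 with CRISPR-DREAM and by 0.48 with dCas9-VPR. These falls stood under median-of-ratios scaling. By that scaling 12 of the 28 factors were lower and 0 higher under SAM. Of 17 translation factors 4 rose and 2 fell under SAM, 1 rose with CRISPR-DREAM and 1 fell with dCas9-VPR. Among the lower were *TUFM*, the elongation factor Tu gene (-0.17), and *OXA1L*, the insertase gene (-0.26), both with the SAM system. Of 19 mitochondrial aminoacyl-tRNA synthetases 1 rose with CRISPR-DREAM, 2 rose and 1 fell under SAM, and 2 rose with dCas9-VPR. *LARS2* was among the higher genes in each case (0.22, 0.30 and 0.29), and under median-of-ratios scaling its calls with CRISPR-DREAM and SAM were lost (FDR = 0.111 and 0.139). *SARS2*, whose start lies 180 bases from that of *MRPS12*, fell with the SAM system (-0.34, FDR = 0.0192). After median-of-ratios scaling 5 translation factors and 9 synthetases were lower under SAM, and 0 genes of either list were higher.

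Of 14 regulators of mitochondrial transcription and biogenesis, 2 rose and 1 fell with CRISPR-DREAM and 3 rose under SAM. *GABPA* and *GABPB1*, whose products form the ETS factor GABP, rose with the SAM system by 0.37 (FDR = 0.00346) and 0.45 (FDR = 0.000903), and under median-of-ratios scaling the rises were 0.19 (FDR = 0.0531) and 0.27 (FDR = 0.0151). *PPARGC1A*, a coactivator of these genes, fell by 0.82 with CRISPR-DREAM (FDR = 0.00631) and *MYC* rose by 0.29 (FDR = 0.0224), which was lost under median-of-ratios scaling (FDR = 0.0853).

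The genes of the cytosolic ribosome were read for comparison. Of 85 cytosolic ribosomal protein genes, 29 fell with CRISPR-DREAM, 58 fell and 2 rose under SAM, and 36 fell with dCas9-VPR, with median log2 fold changes of -0.144, -0.209 and -0.160. The mitochondrial set had medians of 0.010, 0.062 and -0.063 on the same scale. After median-of-ratios scaling 41, 77 and 32 of the 85 were lower. The summed level of the 85 genes was 19.6 and 20.8% of the library in the control and 17.0 to 19.1% with the activators. No test was made of the difference between the 2 sets. Of 81 nuclear-encoded respiratory chain genes tested, 8 rose and 3 fell with CRISPR-DREAM, 18 rose and 3 fell under SAM, and 7 rose with dCas9-VPR. *NDUFB2*, a complex I subunit gene, rose by 0.41 under CRISPR-DREAM and 0.66 under SAM. After median-of-ratios scaling 3 rose and 5 fell with CRISPR-DREAM, 1 rose and 33 fell under SAM, and 1 rose and 1 fell with dCas9-VPR.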

How the data were processed

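RNA-seq libraries of HEK293T cells (4 groups, 2 per group) were assigned to groups from the sample labels. The deposited values are CPM, which the authors obtained by aligning reads with STAR 2.7.3a to hg38, quantifying transcripts of Gencode 36 by a Bayesian approach and adding 0.0001 to each value. How the 19770 genes were selected is not given in the sources used here. The submitters' notes also name DESeq2 3.5. Of low values, 65.6 to 70.4% were whole multiples of 1 read (tolerance 0.05 reads), so reads were not recovered and no count model was fitted. The labels give polyA RNA while the methods name a total RNA kit with rRNA removal.

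Log2(CPM + 0.5) of the 15122 genes that reached 1 CPM in 2 or more libraries was modelled in limma 3.58.1 under R 4.3.3 (trended prior, robust, all 8 libraries, 4 residual degrees of freedom, two-sided). Adjustment was by Benjamini-Hochberg, written FDR. The script was tested on simulated data. Fold changes on this scale understate those of low genes. Lengths came from Gencode 44, promoters from RefSeq, and neighbours and overlaps from the deposited gene coordinates. Alternatives were median-of-ratios scaling, other pseudocounts (0.1 and 1), other filters (none or 10 CPM), no trend, only the 4 libraries compared, a replicate block and leaving out each library.

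The members and gene lists were chosen with earlier results of these data known. Genes were named by rule, being the 6 largest rises and falls past FDR 0.05 relative to the control, the 3 highest and lowest per kb, set role examples, and the 2 extremes each way of other lists. Genes called between activators, genes in the neighbourhood of a member, and *MRPL9*, *MRPL44* and *MRPS35* in lists were named after their values were seen. Respiratory chain assembly factors were left out.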

Additional observations from a re-analysis of the deposited data

How the results depend on the processing

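No call of a named gene changed direction under any alternative. Over 45 named calls, 45 stood at a filter of 10 CPM and at a pseudocount of 0.1, 44 at a pseudocount of 1, 43 with no filter, 31 under median-of-ratios scaling, 31 with only the 4 libraries compared and 21 without trend and robust options. Of all 86 calls of members, 14 stood in every alternative. Median-of-ratios scaling moved the members' median log2 fold change to -0.065 (CRISPR-DREAM), -0.119 (SAM) and -0.115 (dCas9-VPR) against control, to 0.045 between CRISPR-DREAM and SAM and to -0.019 between the SAM system and dCas9-VPR, and the members called in those last comparisons to 3 and 17. Against control, the replicate block called 28 members for CRISPR-DREAM, 38 for SAM and 25 for dCas9-VPR (7, 25 and 9 without it), with 30 for CRISPR-DREAM against SAM and 22 between CRISPR-DREAM and dCas9-VPR. Samples shared only a number, and deviations of same-numbered libraries correlated at 0.133 to 0.326 over 15122 genes, with 2 pairs only. Without trend and robust options 3 members were called with CRISPR-DREAM, 3 with dCas9-VPR, 1 for CRISPR-DREAM against SAM and 2 between CRISPR-DREAM and dCas9-VPR. With only the 4 libraries compared these counts were 3 with CRISPR-DREAM, 1 and 2, with fewer residual degrees of freedom. Leaving out 1 library gave 1 to 10 members with CRISPR-DREAM, 8 to 28 with the SAM system, 0 to 13 with dCas9-VPR, 0 to 9 for CRISPR-DREAM against SAM, 1 to 14 between CRISPR-DREAM and dCas9-VPR and 12 to 35 between the SAM system and dCas9-VPR. A lone library is assumed in these fits to vary like the other groups. The medians then ran from -0.017 to 0.058, 0.052 to 0.092, -0.079 to -0.042, -0.085 to -0.041, 0.041 to 0.127 and 0.096 to 0.134 in the same order. The count past 2-fold was 0 in each alternative. The median level per length went from 32.5 to 63.3 CPM per kb with the canonical transcript, a choice made after seeing the data. Apart from median-of-ratios scaling, the shares of all genes called in these alternatives were not computed. The counts of members called in them thus have no background beside them. The causes of these changes were not tested.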

Other observations

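Within each group the level of these genes tended to be higher in the library numbered 2. The median difference of replicate 1 minus replicate 2 over the 78 genes was -0.043 in control libraries, -0.079 under CRISPR-DREAM, -0.049 under SAM and -0.019 under dCas9-VPR on the log2 scale. Over 7019 tested genes in the same range of CPM it was 0.030, 0.056, 0.012 and 0.014. The sum of the 13 mitochondrially encoded mRNAs went the other way in 3 of the 4 groups, at 12254 and 8940 CPM in control libraries, 14565 and 9977 under CRISPR-DREAM, 13063 and 11699 under SAM and 13116 and 15937 under dCas9-VPR.

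*TMEM63B*, which overlaps *MRPL14* on the opposite strand, so that reads of the overlap could be shared if strand was not used in counting, had 17.2 and 16.9 CPM in control libraries, 27.1 and 26.1 under CRISPR-DREAM and 29.5 and 29.5 under SAM, log2 fold changes of 0.63 and 0.78, while *MRPL14* passed the test in no comparison. *APBA3*, whose start lies 989 bases from that of *MRPL54* on the opposite strand without overlap, rose by 0.53 and 0.47 with these systems, and *MRPL54* passed in none.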
